A study of Mus musculus with 12 samples.

Results

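Immune cells of the mammary gland were compared between 3 single-cell libraries from mice given 17β-estradiol (E2) and 3 libraries from mice given no hormone. A cell counted as immune when it held at least 1 unique molecular identifier (UMI, a count of captured transcripts) of Ptprc, which encodes the pan-leukocyte surface protein CD45, and none of Pdgfra, Epcam or Pecam1, which mark fibroblasts, epithelial cells and endothelial cells. Barcodes were kept with 500 or more genes, 1000 or more UMIs and no more than 5% of UMIs from mitochondrial genes. Of the 22392 cells of these 6 libraries that passed, 2470 were immune, and in all 12 libraries 5044 of 46257 were. None of the immune barcodes was shared between the 6 libraries.

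The study used VCD (4-vinylcyclohexene diepoxide), which destroys small ovarian follicles, to deplete ovarian hormones in female C57BL/6J mice, whose glands were taken at 43 weeks of age. All 6 libraries came from mice injected with VCD at 160 mg/kg/day for 15 days, and the diets began 100 days after VCD onset. The 3 diets differed in polybrominated diphenyl ethers (PBDE, flame retardants): no PBDE (matched food with DMSO), low PBDE for 20 weeks (PBDE-47 at 0.05, PBDE-100 at 0.0028 and PBDE-153 at 0.0063 mg/kg/day), or high PBDE for 1 week (1, 0.056 and 0.126 mg/kg/day). On each diet, 1 library came from mice given E2 at 1 µg/animal/day for 1 week and 1 from mice given the sesame oil vehicle, so that each diet gave 1 pair of libraries. The dose of PBDE and its duration cannot be told apart. Each group is 1 library, and the number of animals behind a library was not given in the sources used here. The 3 diets stand in for replicates, so that p-values rest on the spread of the E2 difference between the 3 pairs. That spread includes any dependence of the difference on diet. In edgeR the spread of each gene was also drawn toward that of other genes. The glands were freed of lymph nodes, digested, treated to lyse red cells and depleted of dead cells.

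The mammary gland holds resident macrophages, T cells, natural killer cells, dendritic cells, mast cells and few neutrophils in its fat and stroma, and these cells take part in ductal growth and in clearing dying cells. E2 acts through nuclear receptors, chiefly estrogen receptor alpha (Esr1), in the epithelial and stromal cells of the gland and in some leukocytes. Type I and type II interferons induce a shared program of antiviral and antigen presentation genes in nearly every cell type through STAT factors and the interferon response element in DNA.

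The 6 libraries held 49582524 to 92724415 UMIs, of which 2040010 to 6532939 were in immune cells. The median depth of immune cells was 6967, 7156 and 7865 UMIs without hormone and 6554, 6280 and 7248 UMIs with E2 (no, low and high PBDE, the order used throughout), lower with E2 on every diet. Ptprc, which the gate uses, stood at 642 to 784 CPM (UMI counts scaled to a common total per library) in the immune cells of each library and at 38.6 CPM in the other cells of the 6 libraries. In the immune cells the summed level of 10 epithelial markers was 6.60 to 24.1 CPM and that of 10 endothelial markers 7.20 to 13.2 CPM. Cells with UMIs of at least 3 markers of an immune class but of none of the 4 genes of the gate were not counted, and numbered 15, 39 and 21 without hormone and 33, 25 and 27 with E2.

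Immune cells made up a larger share of the cells with E2 on every diet. The shares without hormone were 9.61% (exact binomial 95% interval 8.69% to 10.6%), 10.1% (9.23% to 10.9%) and 7.14% (6.25% to 8.12%). With E2 they were 12.5% (11.4% to 13.6%), 15.7% (14.6% to 16.8%) and 9.86% (8.75% to 11.1%). The highest value without hormone, at low PBDE, thus exceeded the lowest with E2, at high PBDE, so that the groups overlapped. Within a diet neither group had a replicate library, so that a separation of the groups cannot be shown there. The mean difference over the 3 diets was 3.73 ± 1.62 percentage points (SD of the 3 differences). It was 2.08 percentage points when immune cells with any Col1a1 UMI were not counted as immune, the total of cells being unchanged, and 3.95 with the cells that held 3 immune markers and no Ptprc UMI counted too, a count chosen after seeing the data. The 2-sided exact permutation test within diets gave p = 0.25, the smallest that 3 pairs allow. Intervals cover counting error only. The mean difference was 4.16 percentage points without the no PBDE pair, 2.80 without the low and 4.24 without the high PBDE pair. Outside the comparison the share was 17.2%, 8.44% and 11.2% with E2 and progesterone, and 14.9% with E2 and the estrogen receptor degrader ICI. It was 8.42% in intact mice and 6.79% in VCD mice in the normal environment. The low PBDE value with progesterone lay below that without hormone, and the ICI value above that with E2 alone without PBDE. A share of dissociated cells depends on the recovery of all the other cells as well.

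**Figure D1:**
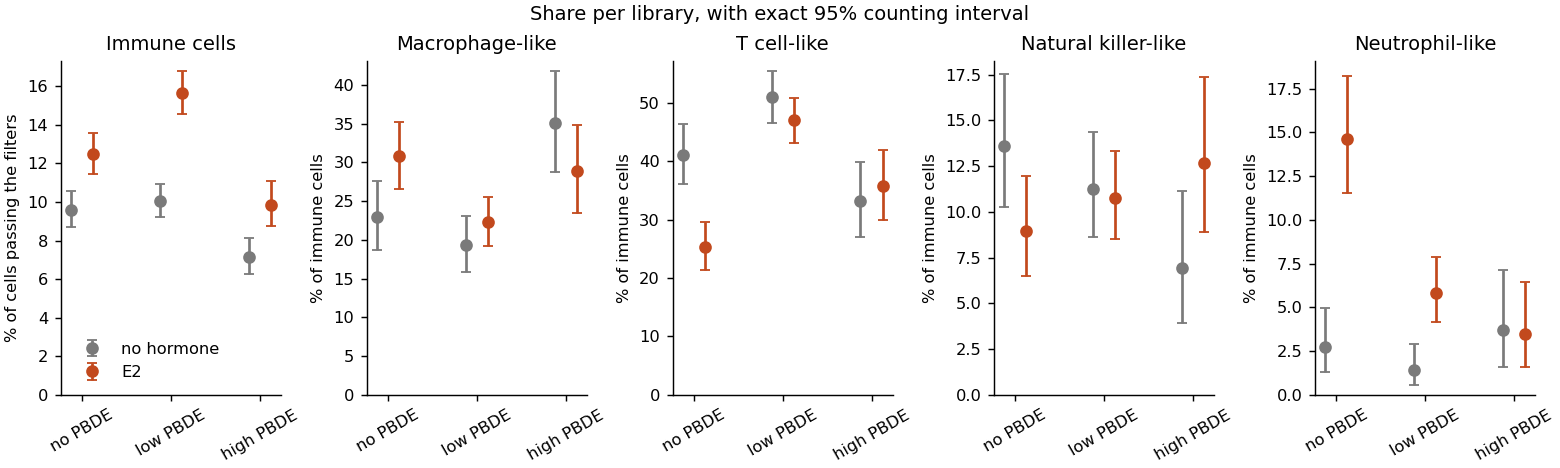
Shares of cells per library, for the 3 diets, without hormone (grey) and with E2 (orange). The first panel gives immune cells as a percentage of the cells passing the filters, the others give 4 classes as percentages of immune cells; bars are exact 95% binomial intervals. The immune share is higher with E2 on all 3 diets, and the neutrophil-like share is higher without PBDE (2.72% and 14.6%) and at low PBDE (1.41% and 5.82%) but not at high PBDE.

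Immune cells were then put into classes by marker genes. A cell joined a class when it had UMIs of at least 3 of that class's 8 to 10 markers and of more of them than of any other class's. T cell-like cells were the most frequent class in 4 of the 6 libraries, and macrophage-like cells in the other 2. T cell-like cells made up 41.1%, 51.0% and 33.2% of immune cells without hormone and 25.3%, 47.0% and 35.8% with E2. Macrophage-like cells, whose defining markers include the complement genes C1qa, C1qb and C1qc, made up 22.9%, 19.3% and 35.02% without hormone and 30.8%, 22.2% and 28.8% with E2. Neither class moved in 1 direction on all 3 diets.

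Neutrophil-like cells, whose defining markers include the calprotectin genes S100a8 and S100a9, were few in most libraries. They numbered 10, 7 and 8 without hormone and 67, 39 and 9 with E2, or 2.72%, 1.41% and 3.69% against 14.6%, 5.82% and 3.46% of immune cells. The share was higher with E2 at no and low PBDE, with intervals that did not overlap, and at high PBDE the intervals covered each other. Each interval covers counting error in 1 library and not the spread between libraries. The mean difference was 5.36 ± 6.12 percentage points (exact permutation p = 0.5, adjusted p = 0.875 over the 7 shares compared). It was 2.10 percentage points without the no PBDE pair and 8.16 without the high PBDE pair. These cells are shallow, with medians of 2256 to 3797 UMIs. With cells thinned to 3000 UMIs, which left 195 to 607 immune cells per library, the shares were 1.17%, 0.839% and 0.513% without hormone and 6.06%, 3.29% and 1.28% with E2. Thinning leaves out cells under 3000 UMIs. The median of this class was below that in every library compared except low PBDE without hormone. The thinned shares thus rest on few, deeper cells of the class. Without thinning, neutrophil-like cells were also frequent in 3 libraries outside the comparison. They were 45 of 422 immune cells given E2 and the estrogen receptor degrader ICI, 23 of 291 in intact mice and 20 of 247 in VCD mice kept in the normal environment without hormone. They were few in the 3 libraries given E2 and progesterone, with 15 of 751, 14 of 639 and 9 of 224 immune cells.

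Natural killer-like cells were 13.6%, 11.2% and 6.91% of immune cells without hormone and 8.95%, 10.7% and 12.7% with E2. Conventional dendritic cell-like cells were 8.99%, 4.02% and 7.37% against 5.68%, 5.22% and 10.8%. Mast cell-like cells were 0.385% to 1.63% in the 6 libraries. The cells with B cell markers, 12 in the 6 libraries, were led by plasma cell genes such as Jchain and Mzb1 and were not compared. Between 6.92% and 12.9% of immune cells joined no class. None of the 7 shares of immune cells (6 classes and the cells in no class) differed in the same direction on all 3 diets.

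The UMIs of all immune cells of a library were summed and the sums compared with diet as a block. No gene of 10679 tested passed an adjusted p of 0.05 in edgeR (0%), the smallest adjusted p being 0.0687. At an unadjusted p under 0.05, 493 genes were higher with E2 (4.62% of those tested) and 310 lower (2.9%). DESeq2 on the same sums called 59 genes (39 raised, 20 lowered). Within these sums a shift in the share of a class and a change within its cells cannot be told apart.

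Of the 8 genes higher with E2 that had the smallest p, Oasl1 and Ifit2 were on the list of interferon-induced genes, and none of the 8 passed the threshold. Siglec1 (ENSMUSG00000027322; GRCm38 chromosome 2, 131069220 to 131086765), the sialic acid receptor CD169 of macrophages, stood at 5.10, 2.78 and 2.45 CPM without hormone and at 28.4, 16.8 and 12.01 CPM with E2. All 3 E2 libraries lay above all 3 without hormone, with a log2 fold change of 2.48 ± 0.23 (SE) and an edgeR adjusted p of 0.0687. Ccl8, a chemokine of macrophages and fibroblasts, stood at 108, 99.9 and 185 CPM against 239.9, 327 and 692 CPM (log2 fold change 1.59 ± 0.17, edgeR adjusted p = 0.0687). Again the groups did not overlap, but in the high PBDE library without hormone 1 cell held 91.0% of the Ccl8 UMIs.

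Oasl1, a brake on Irf7 translation, was at 13.2, 14.3 and 12.3 CPM against 39.5, 38.0 and 32.0 CPM. Ednrb, the endothelin B receptor, was at 44.4, 46.4 and 64.2 against 117, 115 and 117 CPM. Plin2, a lipid droplet coat protein, was at 192, 219 and 193 against 440.3, 417 and 332 CPM. Lgals3bp, a secreted lectin ligand, was at 65.4, 46.2 and 57.4 against 162, 142 and 99.3 CPM. None of the 4 passed the threshold (edgeR adjusted p = 0.0687 for Oasl1, 0.115 for Ednrb and 0.145 for both Plin2 and Lgals3bp). In each the E2 libraries lay above the others, but genes picked by smallest p on these values tend to separate in this way. Pooled over the 6 libraries, macrophage-like cells held more CPM of Siglec1 (33.7), Ccl8 (680.1), Oasl1 (59.6) and Ednrb (227) than did any other class. Ifit2 was at 6.30, 2.38 and 3.92 against 21.0, 24.0 and 26.0 CPM (edgeR adjusted p = 0.145). Ccl1, a chemokine of T cells and mast cells, was at 14.1, 39.9 and 9.80 against 57.2, 92.0 and 37.6 CPM, with overlapping groups.

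**Figure D2:**
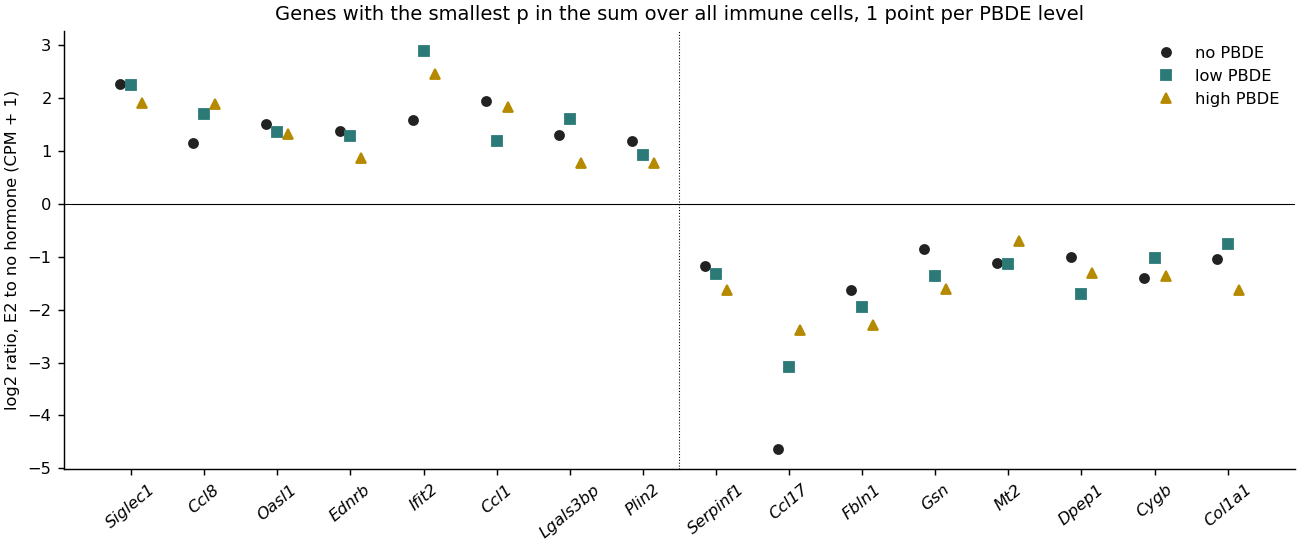
Log2 ratio of E2 to no hormone in the sums over all immune cells, on the scale log2(CPM + 1), for the 8 genes higher and the 8 genes lower with E2 that had the smallest p. There is 1 point per diet. All 48 points keep the sign of their gene, which the naming rule required on every diet, so that this is no further support. None of the 16 genes passed the adjusted threshold.

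Of the 8 genes lower with E2, 6 were genes of fibroblasts: Serpinf1 (pigment epithelium-derived factor), Fbln1 (fibulin), Gsn (gelsolin), Dpep1, Cygb and Col1a1 (collagen). Without PBDE or hormone 1 cell held 57.2% of the Col1a1 UMIs. At high PBDE without hormone 1 cell held 52.6% of the Fbln1 UMIs. For Serpinf1 the highest cell held 23.6%, 13.3% and 24.7% without hormone. The share of immune cells with a Col1a1 UMI was higher with E2 on every diet (31.1%, 30.5% and 24.0% against 38.4%, 34.3% and 25.8%). Serpinf1 stood at 85.2, 84.7 and 113 CPM without hormone and 37.3, 33.2 and 36.0 CPM with E2 (log2 fold change -1.39 ± 0.14, edgeR adjusted p = 0.0687). Its level in the non-immune cells was 1682 CPM. The summed CPM of 10 fibroblast markers in immune cells moved with it, from 2455, 2569 and 3037 without hormone to 1643, 1215 and 1165 with E2, and none of the 10 was at 0. Of these markers, 0 were higher and 7 lower at an unadjusted p under 0.05, against 4.62% and 2.9% of all genes tested. With immune cells that held any Col1a1 UMI left out, 3 of 9 were higher and 3 lower, against 3.18% and 1.51% of all genes. The part of free or doublet-borne fibroblast RNA in these differences was not tested. Collagens showed the same split, with 9 of 15 tested genes lower at an unadjusted p under 0.05 and none higher. Mt2, a metallothionein induced by metals and glucocorticoids, was at 330.1, 486 and 318 against 151, 220 and 194 CPM (edgeR adjusted p = 0.157).

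Ccl17, a chemokine of dendritic cells, was at 63.0, 32.1 and 16.7 CPM without hormone and 1.56, 2.91 and 2.40 CPM with E2. A single cell held 97.6% of its 210 UMIs without PBDE, 74.1% of its 162 at low PBDE and 94.1% of its 34 at high PBDE. Most of the Ccl17 UMIs of each library without hormone were thus in 1 cell.

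The nuclear receptors of steroids gave little signal. Esr1, the receptor E2 binds, was at 5.40, 5.55 and 3.43 CPM without hormone and 7.60, 4.13 and 7.20 CPM with E2, which is 7 to 34 UMIs per library, and its groups overlapped. It was higher in the non-immune cells (53.2 CPM). Esr2 and Gper1, the other estrogen receptors, had no UMI in the immune cells of any of the 6 libraries, and the progesterone receptor Pgr was at or below 0.612 CPM. A count of 0 allows up to 3 UMIs at this depth. Nr3c1, the glucocorticoid receptor, lay between 173 and 259.5 CPM, with overlapping groups and an edgeR adjusted p of 0.769. Esrra, an orphan receptor related to Esr1, was at 17.1, 17.4 and 19.6 against 14.3, 14.8 and 12.01 CPM (edgeR adjusted p = 0.762). Nr3c2 was at most at 1.38 CPM. Of 21 tested genes known as estrogen receptor targets in other cells, 4 were higher and 0 lower at an unadjusted p under 0.05, against 4.62% higher and 2.9% lower among all genes tested, with a median log2 fold change of 0.10 against 0.00 over all genes. Vegfa, the endothelial growth factor, had the smallest p of them, at 15.0, 21.2 and 11.8 CPM against 34.8, 41.2 and 33.6 CPM (log2 fold change 1.18 ± 0.17, edgeR adjusted p = 0.175). Ctsd, a lysosomal protease, was next (0.57 ± 0.13, adjusted p = 0.33). In macrophage-like cells 7 of 21 tested genes of this list were higher and 2 lower at an unadjusted p under 0.05. The shares of all genes tested there were 5.14% and 4.15%, and the list's median log2 fold change was 0.17. In T cell-like cells 0 of 18 were higher and 0 lower, against 1.47% and 1.05% of all genes.

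Within macrophage-like cells the sums were compared in the same way. With E2, 12 of 7920 genes rose past the threshold (0.152% of those tested) and 1 fell (0.0126%), from 75 to 149 cells per library. Unlike immune cells as a whole, these cells had a higher median depth with E2 on every diet, at 12029, 12502 and 9843 UMIs without hormone and 13056, 16295 and 11160 UMIs with E2. The summed CPM of the 10 fibroblast markers in these cells was 1206, 1389 and 851 without hormone and 974, 906 and 914 with E2, with overlapping groups. Of these markers 1 was higher and 3 lower at an unadjusted p under 0.05, against 5.14% and 4.15% of all genes tested. The summed CPM of 10 markers of group 2 innate lymphoid cells was 78.6, 159 and 267 against 158, 392 and 374 CPM, higher with E2 on every diet. Of these markers 5 were tested, all 5 were higher at an unadjusted p under 0.05 (median log2 fold change 0.81), and their part in the results of this class was not tested. The C1q genes and the other markers that define the class are no result here. Leading the 12 was Ifit2 (ENSMUSG00000045932; GRCm38 chromosome 19, 34550694 to 34576419), an interferon-induced RNA-binding protein. It stood at 2.84, 2.14 and 4.92 CPM without hormone and 42.3, 46.1 and 32.8 CPM with E2, so that the groups were far apart. The log2 fold change was 3.66 ± 0.34 (edgeR adjusted p = 0.0122), from 3 to 4 UMIs per library without hormone. At high PBDE the 29 UMIs with E2 came from 3 cells, while 26 and 31 cells carried it in the other E2 libraries.

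Siglec1 stood at 16.1, 10.0 and 6.15 CPM against 60.3, 40.5 and 33.9 CPM (log2 fold change 1.99 ± 0.23, edgeR adjusted p = 0.0154). No E2 cell held more than 13.3% of a library's Siglec1 UMIs, and 19 to 48 cells carried it in the E2 libraries. Its edgeR adjusted p was 0.0567 without the diet block, 0.0701 in the fit with the 3 libraries given E2 and progesterone (9 libraries) and 0.114 in cells with no Col1a1 UMI. The log2 fold change of Siglec1 in these fits was 2.01, 2.02 and 1.84, in that order. Bst2 (tetherin, which holds budding virus at the cell surface) stood at 275, 183 and 146 CPM against 530.5, 503 and 324 CPM (log2 fold change 1.14 ± 0.14, edgeR adjusted p = 0.0166). Lgals3bp stood at 122, 82.2 and 87.3 against 285, 273 and 210.3 CPM (1.37 ± 0.15, adjusted p = 0.0122), and Oasl1 at 34.1, 30.01 and 20.9 against 76.0, 82.1 and 65.6 CPM (1.34 ± 0.18, adjusted p = 0.029). In cells with no Col1a1 UMI the edgeR adjusted p was 0.169 for Bst2, 0.137 for Lgals3bp and 0.194 for Oasl1. Their log2 fold changes in those cells were 0.97, 1.21 and 1.44. Without the low PBDE pair the edgeR adjusted p was 0.0673 for Bst2 and 0.0721 for Oasl1, and without the block 0.0877 for Bst2. Pydc4, a pyrin-domain gene of the interferon-inducible Ifi200 cluster, was even across diets, with 15.2, 12.9 and 14.8 against 53.7, 55.1 and 52.0 CPM (1.88 ± 0.20, adjusted p = 0.0122).

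The other genes that rose served other functions. Grn (progranulin, a lysosomal and secreted growth factor) went from 679.9, 663 and 731 CPM to 1298, 1219.6 and 1295 CPM (0.84 ± 0.11, edgeR adjusted p = 0.0271). Cfb, complement factor B, went from 17.0, 4.29 and 9.84 to 44.2, 33.3 and 53.1 CPM (2.06 ± 0.30, adjusted p = 0.0442). Its edgeR adjusted p was 0.058 with RLE normalization, 0.0707 without the block, 0.0721 without the low PBDE pair and 0.694 in cells with no Col1a1 UMI. The log2 fold change of Cfb in these fits was 2.06, 2.03, 1.76 and 1.32, in that order. Gpx3, a secreted glutathione peroxidase, went from 17.0, 14.3 and 22.1 to 42.3, 42.7 and 59.9 CPM, and Fcna, the macrophage lectin ficolin A, from 84.3, 207 and 214 to 245, 427 and 382 CPM. In cells with no Col1a1 UMI the edgeR adjusted p was 0.209 for Grn, 0.318 for Gpx3 and 0.692 for Fcna. Their log2 fold changes were 0.63, 1.04 and 0.57 in those cells, against 0.84, 1.40 and 1.08 in all macrophage-like cells. Without the low PBDE pair the edgeR adjusted p was 0.0721 for Grn, 0.0804 for Gpx3 and 0.0721 for Fcna, and without the no PBDE pair 0.0879, 0.0828 and 0.104. Gpx3 and Fcna also missed the threshold without the block (0.0707 and 0.293) and with 9 libraries (0.127 for both), as did Gpx3 with DESeq2 (0.103) and Fcna with RLE normalization (0.053). Of the 12 genes, Ifit2 and Pydc4 passed under each alternative that was run. In all 4 of Grn, Cfb, Gpx3 and Fcna the lowest E2 library lay above the highest without hormone. They were chosen by a test on the same values, so this is no further support. Top2a and Hist1h2ap, genes of dividing cells, are described with the cell cycle. Of these 12, Bst2, Lgals3bp, Oasl1, Grn, Gpx3 and Fcna fell outside the naming rule for this class and were named because they passed the threshold.

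**Figure D3:**
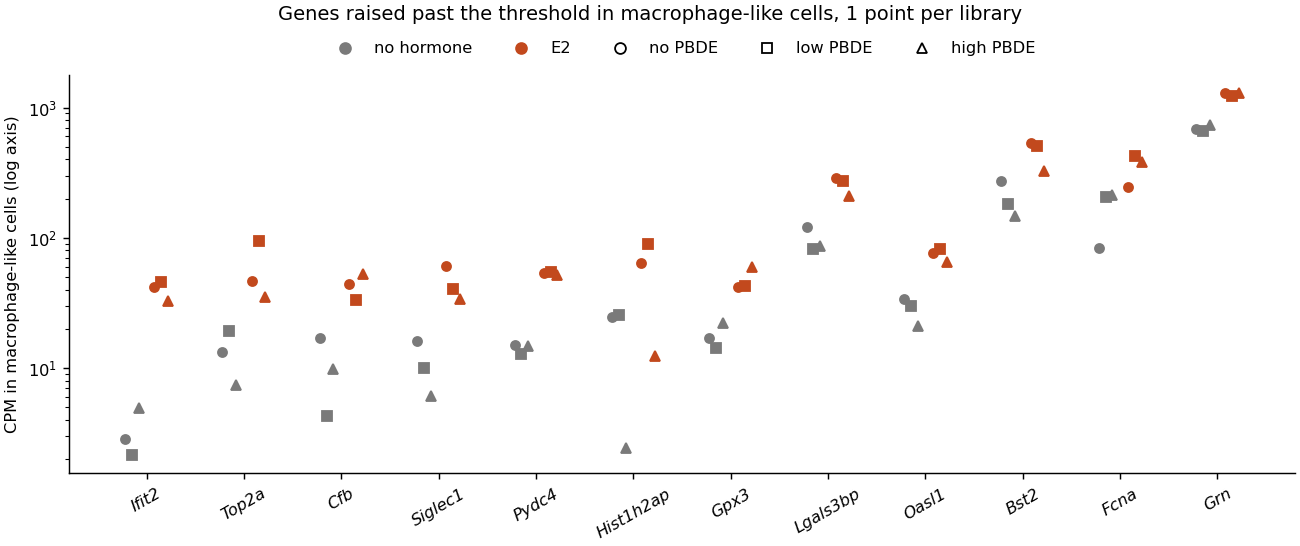
CPM on a log axis of the 12 genes raised past the threshold in macrophage-like cells, in order of fold change, with 1 point per library (grey without hormone, orange with E2; circle no PBDE, square low PBDE, triangle high PBDE). For 11 of the genes every E2 point lies above every point without hormone, and Hist1h2ap is the exception. The genes were chosen by a test on these same values, so the separation is no further support.

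Hbb-bt, a beta globin, was the gene that fell in macrophage-like cells, and it was named after its value was seen. It was at 1.89, 319 and 51.7 CPM without hormone and 2.37, 56.6 and 10.2 CPM with E2. At low PBDE 1 cell held 99.6% of its UMIs without hormone and 94.0% with E2, and at high PBDE 1 cell held 97.6% and 66.7%. With the cells of 10 or more globin UMIs left out, the same 12 raised genes passed. Hbb-bt was then below the filter on low counts and was not tested.

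The interferon-induced genes were higher as a group in macrophage-like cells. Of 39 tested, 24 were higher at an unadjusted p under 0.05 and 0 lower, against 5.14% higher and 4.15% lower among all genes tested, and their median log2 fold change was 0.93 against -0.01 over all genes. Of the list, 3 passed the adjusted threshold (Ifit2, Bst2 and Oasl1). Irf7, the transcription factor that amplifies type I interferon, stood at 125, 69.3 and 109 CPM against 341, 341 and 174 CPM (log2 fold change 1.46 ± 0.25, edgeR adjusted p = 0.0712). Rsad2 (viperin) was at 19.9, 12.1 and 60.3 against 126, 162 and 63.3 CPM, and Ifit1, a sensor of viral RNA caps, at 11.4, 9.29 and 48.0 against 49.9, 61.4 and 82.5 CPM. In all 3 the E2 libraries lay above the others, Rsad2 by little at high PBDE. Ifit3 was at 21.8, 7.14 and 38.1 against 64.6, 74.6 and 37.3 CPM, so that at high PBDE the pair did not differ in the same direction. These 4 genes were named after their values were seen. Leaving out a pair gave 24 of 38 higher without the no PBDE pair, 21 of 38 without the low PBDE pair and 30 of 39 without the high PBDE pair, against 4.21%, 4.88% and 5.62% of all genes, with 0, 1 and 2 lower. In cells with no Col1a1 UMI 21 of 36 were higher, against 3.72% of all genes. In the sums over all immune cells 20 of 39 were higher and 0 lower, against 4.62% and 2.9%.

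The summed level of the list was also higher with E2 on every diet outside the immune cells, a comparison that was not tested. The summed CPM of the 39 genes in macrophage-like cells was 3735, 2481 and 2669 without hormone and 5886, 6338 and 4156 with E2. In the cells that were not immune it was 2497, 1629 and 1805 without hormone and 4680.3, 4644 and 2610.6 with E2. In T cell-like cells it was 2384, 1910.2 and 1226 against 2552, 2854 and 2758. Ifi27l2a, 1 of the 39, made up a large part of these sums. Pooled over the 6 libraries it stood at 2366 CPM in macrophage-like, 1115 in T cell-like and 1261 CPM in non-immune cells. A higher sum thus need not mean that the other members were higher. In all immune cells Ifi27l2a stood at 1232, 757 and 762 against 2027, 2052 and 1174 CPM. In T cell-like cells 2 of 28 tested members were higher at an unadjusted p under 0.05 and 0 lower, against 1.47% and 1.05% of all genes. Whether the difference itself differs between the classes was not tested.

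Interferon response elements contain the letters GAAA, any 2 bases and GAAA again, which were searched on both strands with overlaps allowed. RefSeq promoter windows of GRCm38.p6, from 250 bases before to 50 after a gene's start, held these letters in 3.99% of 27025 genes and in 4.08% of 6177 genes tested in macrophage-like cells. Of the interferon-induced list, 31 of 40 genes had a window and 18 held the letters. Among the 19 that were higher with E2 at an unadjusted p under 0.05, 10 held them, and among the other 12, 8 did. The letters of a full estrogen response element, GGTCA, any 3 bases and TGACC, were in the windows of none of the 31 genes and in those of 0.074% of all genes. Of the 8 genes with a window among those that rose past the threshold, 1 held the interferon letters (12.5%). The windows of 4 genes of the list are shown because they hold these letters, which stand in capitals, and of the 4 Ifit3 was not higher with E2 at high PBDE. Bst2 is at chr8:71537423-71537722, minus strand, with 2 overlapping matches. Rsad2 is at chr12:26456403-26456702, minus strand. Ifit1 is at chr19:34640639-34640938 and Ifit3 at chr19:34583279-34583578, both on the plus strand.
Bst2: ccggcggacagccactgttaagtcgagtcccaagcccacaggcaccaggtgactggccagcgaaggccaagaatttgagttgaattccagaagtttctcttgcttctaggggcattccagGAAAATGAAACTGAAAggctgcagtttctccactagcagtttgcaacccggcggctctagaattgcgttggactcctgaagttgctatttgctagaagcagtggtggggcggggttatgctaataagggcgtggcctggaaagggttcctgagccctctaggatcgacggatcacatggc
Rsad2: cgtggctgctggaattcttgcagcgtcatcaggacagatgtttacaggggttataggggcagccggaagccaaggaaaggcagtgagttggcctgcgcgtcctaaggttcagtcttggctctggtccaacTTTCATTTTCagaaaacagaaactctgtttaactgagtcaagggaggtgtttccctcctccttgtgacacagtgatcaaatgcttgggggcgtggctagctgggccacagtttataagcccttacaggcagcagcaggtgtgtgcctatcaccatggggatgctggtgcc
Ifit1: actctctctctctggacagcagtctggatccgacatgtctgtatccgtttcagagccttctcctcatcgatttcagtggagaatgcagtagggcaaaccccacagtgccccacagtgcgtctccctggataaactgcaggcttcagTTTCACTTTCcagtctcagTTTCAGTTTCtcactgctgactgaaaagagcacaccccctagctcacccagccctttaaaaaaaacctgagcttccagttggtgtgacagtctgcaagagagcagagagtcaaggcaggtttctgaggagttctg
Ifit3: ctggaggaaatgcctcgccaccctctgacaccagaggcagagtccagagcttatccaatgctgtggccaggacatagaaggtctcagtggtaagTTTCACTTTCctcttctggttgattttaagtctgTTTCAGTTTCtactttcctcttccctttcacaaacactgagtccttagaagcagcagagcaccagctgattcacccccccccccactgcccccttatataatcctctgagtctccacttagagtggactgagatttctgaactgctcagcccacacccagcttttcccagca

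The 2 windows of Ifit2, which had the largest fold change of the genes past the threshold in macrophage-like cells, did not hold the letters within these 300 bases.

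The remaining 6 libraries of the series place these levels. With E2 and progesterone (P4), Ifit2 was at 19.7, 22.9 and 26.0 CPM in macrophage-like cells and Siglec1 at 31.9, 22.9 and 68.7 CPM, all above the 3 libraries without hormone. In the single library with E2 and ICI, Ifit2 was at 0.928 CPM, Siglec1 at 2.79 CPM, Irf7 at 70.6 CPM and Bst2 at 175 CPM. Of these, Ifit2 and Siglec1 lay below all 3 libraries without hormone, and Irf7 and Bst2 lay within their range. The libraries without hormone held 3, 3 and 4 UMIs of Ifit2 and 17, 14 and 5 of Siglec1. At such levels the order of the libraries rests on few UMIs. Intact mice had Ifit2 at 4.44 CPM and Siglec1 at 14.2 CPM, within the range of the libraries without hormone, but Bst2 at 338 CPM and Irf7 at 163 CPM, above all 3 of them. The summed CPM of the 39 interferon-induced genes was 4047 in intact mice, also above those 3, and 3764 in the normal environment. The VCD mice kept in the normal environment without hormone had Ifit2 at 8.47 CPM, Siglec1 at 19.4 CPM and Irf7 at 221 CPM, above all 3 libraries without hormone, and Bst2 at 237 CPM, within their range. The Irf7 level of that library also exceeded the one with E2 at high PBDE. With 1 library each, the ICI, intact and normal environment values have no replicate check. The low PBDE library with E2 and P4 stood apart through its fibroblast RNA, with Col1a1 at 879.9 CPM in its immune cells.

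**Figure D4:**
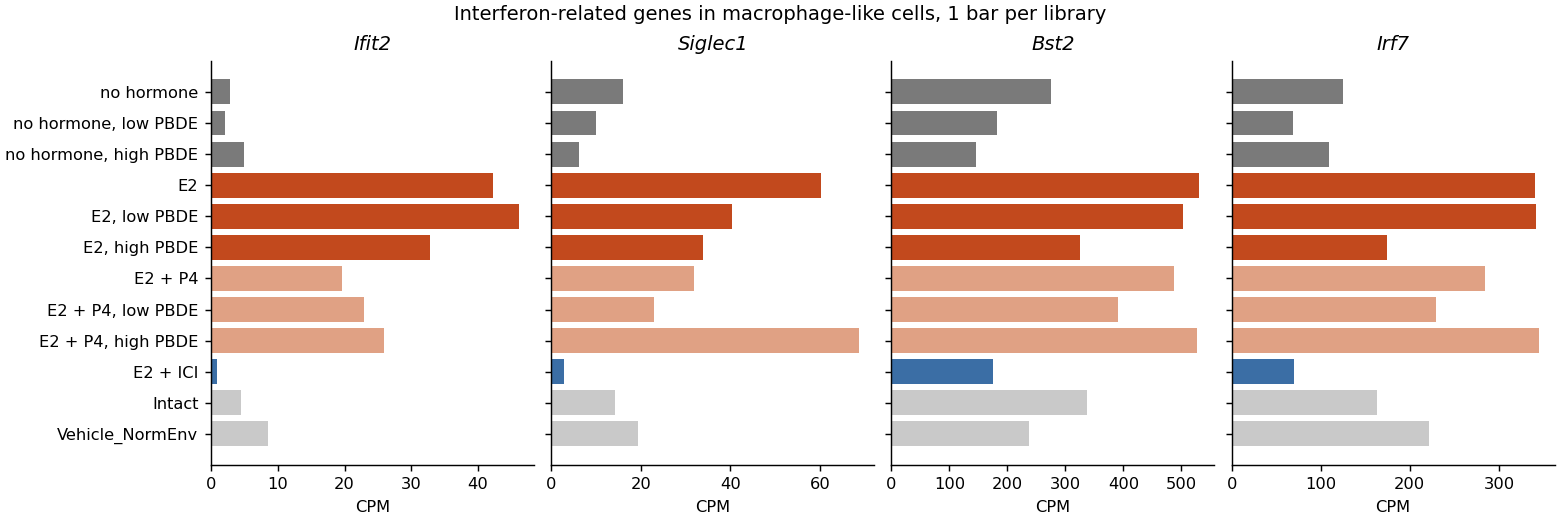
CPM of Ifit2, Siglec1, Bst2 and Irf7 in the macrophage-like cells of all 12 libraries, 1 bar per library (dark grey no hormone, orange E2, light orange E2 + P4, blue E2 + ICI, light grey intact and vehicle in the normal environment). The 3 E2 bars lie above the 3 bars without hormone for each gene, the E2 + ICI bar lies below or among the latter, and the Irf7 bar of the vehicle in the normal environment (221) lies above the E2 bar at high PBDE (174).

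Of 21 cell cycle genes tested in macrophage-like cells, 12 were higher with E2 at an unadjusted p under 0.05 and 0 lower, against 5.14% and 4.15% of all genes tested, with a median log2 fold change of 0.87. The share of these cells with a UMI of Top2a or Mki67, both expressed by dividing cells, was 8.33% (7 of 84), 19.8% (19 of 96) and 14.5% (11 of 76) without hormone and 14.2% (20 of 141), 16.8% (25 of 149) and 20.0% (15 of 75) with E2. It was lower with E2 at low PBDE, and within each diet the exact binomial intervals overlapped. With each cell thinned to 3000 UMIs, a step added after seeing the depths that left out 1 to 5 cells per library, the share was 1.20%, 7.37% and 4.05% against 6.57%, 6.94% and 4.23%. No neutrophil-like cell of the 6 libraries, a class of shallower cells, held a UMI of either gene. Top2a, the topoisomerase of dividing cells, stood at 13.3, 19.3 and 7.38 CPM without hormone and 46.5, 94.8 and 35.05 CPM with E2 (2.07 ± 0.21, edgeR adjusted p = 0.0122). These levels came from 2 to 5 cells per library without hormone and 8 to 17 with E2, and without PBDE or hormone 1 cell held 92.9% of the Top2a UMIs. Hist1h2ap, a replication-dependent histone with near-identical copies, was at 24.6, 25.7 and 2.46 against 64.6, 89.6 and 12.4 CPM, and at high PBDE its 11 UMIs with E2 came from 1 cell. The edgeR adjusted p of Top2a was 0.0776 without the block, 0.0612 with 9 libraries and 0.0649 without the low PBDE pair, and in cells with no Col1a1 UMI the gene was below the filter on low counts. That of Hist1h2ap was 0.395 without the block, 0.186 with 9 libraries, 0.054 without the Pecam1 condition, 0.0989 without the low PBDE pair and 0.902 in cells with no Col1a1 UMI, where its log2 fold change was 0.68. Leaving out cells with any Col1a1 UMI left 9 cell cycle genes to test, of which 2 were higher, against 3.72% of all genes. In the sums over all immune cells no cell cycle gene of 29 reached an unadjusted p under 0.05, nor did any of 21 in T cell-like cells, but without the no PBDE pair 12 of 29 and 7 of 25 were higher, against 3.09% and 1.45% of all genes.

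Antigen presentation genes split by class in macrophage-like cells. Of all genes tested there, 5.14% were higher and 4.15% lower at an unadjusted p under 0.05. Of 16 MHC class I genes 7 were higher at that p and 0 lower (median log2 fold change 0.37), among them B2m, the light chain, at 2570.2, 1886 and 1744 CPM against 3555, 3168 and 2790.4 CPM (0.59 ± 0.11, edgeR adjusted p = 0.0727). Of 10 MHC class II genes 6 were lower and 0 higher (median -0.35). H2-Ab1, a class II beta chain, was at 6473, 5862 and 5209 against 4488, 3998 and 4882 CPM (-0.44 ± 0.12, adjusted p = 0.251), so that its groups did not overlap. Cd74, the invariant chain, was at 19401, 19266 and 17938 against 13247, 11284 and 18895 CPM, with the high PBDE pair going the other way. Of the class II genes 2 of 10 were lower without the no PBDE pair, 1 of 10 without the low PBDE pair and 6 of 10 without the high PBDE pair, against 2.52%, 3.95% and 4.59% of all genes. In T cell-like cells 10 of 11 tested class II genes were lower too, with a median log2 fold change of -0.32. Of these, 3 were lower at an unadjusted p under 0.05 and 0 higher, against 1.05% and 1.47% of all genes tested there. Whether the fall differs between the 2 cell classes was not tested. B2m and H2-Ab1 were named after their values were seen.

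Genes of tissue-resident macrophages and of monocytes were examined in the same cells. Of 19 resident macrophage genes 8 were higher and 0 lower at an unadjusted p under 0.05, against 5.14% and 4.15% of all genes tested, among them Fcna, the selenium carrier Sepp1 (1635, 2038 and 1978 against 2738, 2185 and 3620.3 CPM) and the folate receptor Folr2 (511, 501 and 402 against 578, 589 and 851 CPM). The summed CPM of the 22 resident genes was 22348, 34698 and 27075 without hormone and 28160, 29260 and 28956 with E2, lower with E2 at low PBDE. Of 10 monocyte markers 5 were lower and 0 higher at an unadjusted p under 0.05, while their summed CPM was 1683, 807 and 1502 against 1761, 1413 and 820, lower with E2 at high PBDE alone. Ace was at 108, 65.7 and 78.7 against 65.1, 31.1 and 39.6 CPM, and Treml4 at 54.9, 36.4 and 45.5 against 24.7, 21.4 and 19.2 CPM (log2 fold change -0.96 ± 0.17 and -1.07 ± 0.19, edgeR adjusted p = 0.0712 and 0.0727). Both mark nonclassical monocytes. The 2 lists mark different myeloid cells, so that a shift in the makeup of the class and a change within its cells cannot be told apart. Of 28 ribosomal protein genes 7 were lower and none higher, with a median of -0.17. Of 35 respiratory chain genes none reached an unadjusted p under 0.05.

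**Figure D5:**
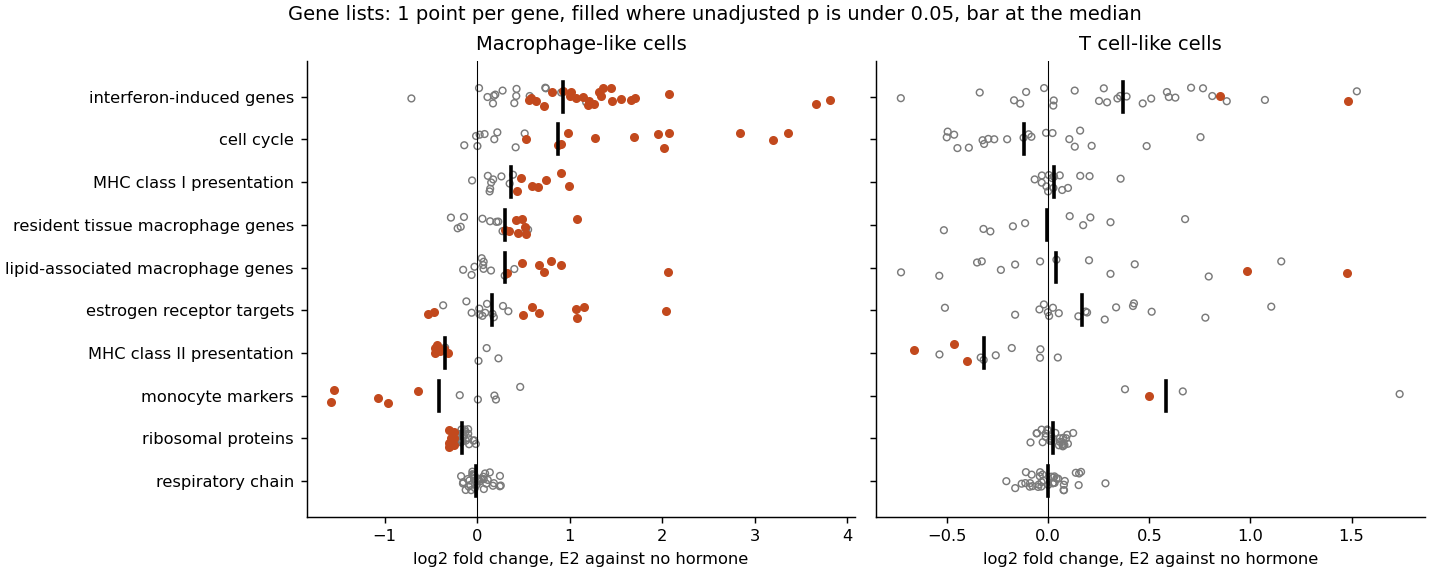
Log2 fold change, E2 against no hormone, of the genes of 10 lists in macrophage-like cells (left) and T cell-like cells (right), on separate horizontal scales. Each point is a gene, filled where its unadjusted p is under 0.05, and the bar is the list's median. In macrophage-like cells the interferon list has 24 filled points to the right and MHC class II has 6 to the left, and in T cell-like cells most points are open.

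T cell-like cells gave 4 genes of 7350 past the threshold, all raised with E2 (0.0544%), and all were globins: Hba-a1, Hba-a2, Hbb-bs and Hbb-bt. Hba-a1 was at 1.76, 1.88 and 3.13 CPM without hormone and 1298, 404 and 1662 CPM with E2. Copies of each globin are so alike that counts may be split between them. These red cell transcripts came from 1, 1 and 3 cells, which held 5186, 4125 and 4159 of the 5236, 4285 and 4177 globin UMIs of T cell-like cells. No T cell-like cell of the libraries without hormone had 10 globin UMIs. With those cells left out, 0 of 7361 genes passed in edgeR, and 179 had an unadjusted p under 0.05. DESeq2 was not run without them.

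No gene other than the globins passed. Il5, a type 2 cytokine, is 1 of the 10 markers of group 2 innate lymphoid cells counted below. It was at 98.3, 178 and 192 CPM without hormone and 310.3, 517 and 409 CPM with E2 (log2 fold change 1.45 ± 0.18, edgeR adjusted p = 0.118), with every E2 library above the others. Calca, which group 2 innate lymphoid cells express, was at 25.5, 35.7 and 70.4 against 45.8, 99.9 and 174 CPM, and the cytokine Csf2 at 35.1, 66.8 and 117 against 98.7, 199.8 and 166 CPM, with overlapping groups in both. Of 10 markers of group 2 innate lymphoid cells 3 were higher and 0 lower at an unadjusted p under 0.05, against 1.47% and 1.05% of all genes tested, and their summed CPM was 1444, 2575 and 3237 against 3965, 3558 and 3487. Between 0.952% and 3.23% of T cell-like cells had no UMI of Cd3d, Cd3e or Cd3g. The metallothionein Mt2 was at 115, 259 and 124 against 78.8, 110.03 and 66.3 CPM (edgeR adjusted p = 1.00). Il2, the T cell growth factor, was at 23.7, 26.8 and 12.5 against 114, 51.1 and 36.7 CPM (edgeR adjusted p = 1.00). Calca, Csf2, Mt2 and Il2 were named after their values were seen. Cytotoxic effectors (0 of 18 higher, 0 lower) and T cell activation and checkpoint genes (1 of 23 higher, 0 lower) lay near the background.

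In the sums over all immune cells, 4.62% of all genes tested were higher and 2.9% lower at an unadjusted p under 0.05, and the counts of the other lists are read against these shares. Resident macrophage genes had 15 of 20 higher and 0 lower, lipid-associated macrophage genes 11 of 20 and 2, and phagocyte and complement genes 11 of 21 and 1. For the 22 resident genes the summed CPM was 7917, 11982 and 12680 against 14912, 13485 and 11785, lower with E2 at high PBDE. C1qa, a complement gene that defines the class, was at 619, 517 and 634 against 1037, 863 and 971 CPM. All 10 neutrophil markers were higher at that p (median log2 fold change 1.39), but 3 of 10 were without the no PBDE pair and 1 of 10 without the low PBDE pair, against 3.09% and 1.95% of all genes. S100a8 stood at 478, 174 and 554 against 3063, 997 and 528 CPM, so that the high PBDE pair went slightly the other way. Slc40a1, the iron exporter, whose level was highest in neutrophil-like cells (287 CPM), was at 5.40, 2.38 and 1.47 against 19.7, 7.35 and 4.80 CPM, with overlapping groups. T cell markers were lower in all 8 tested, 1 of them at an unadjusted p under 0.05. Of 21 chemokines 9 were higher and 4 lower, and of 25 cytokines 10 and 1. Of 19 cholesterol synthesis genes 3 were lower, Cyp51 (50.1, 38.3 and 47.1 against 30.4, 29.1 and 23.6 CPM) and Fdps among them, and 1 was higher. Of 13 glucocorticoid-induced genes 4 were lower and 1 higher. Of 10 genes that the study ties to E2 in fibroblasts, a list chosen on some of these samples, 4 were higher and 1 lower, led by Ccl8 and Ifi27l2a.

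The names of the deposited libraries carry 1 of 2 codes, whose meaning is not given in the sources used here. The pairs without PBDE and at high PBDE lie within a code each, and the low PBDE pair spans both. Without that pair, edgeR called 0 genes in all immune cells, 8 in macrophage-like cells (6 raised, 2 lowered, 4 of them among the 13) and 4 in T cell-like cells.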

How the data were processed

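Single-cell 3′ libraries (10x Chromium v3) of mammary gland cells were measured, 1 per group. The authors aligned reads with Cell Ranger 3.1.0 to mm10 and deposited UMI counts per gene and barcode, listing 27998 genes. Counts are raw, so neither free RNA nor doublets had been removed. Members and gene lists here were chosen with earlier results of these data known.

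UMI counts of immune cells were summed per library and tested with edgeR 4.0.16 (TMM, filterByExpr with a minimum count of 10, quasi-likelihood test, diet and hormone as terms), with Benjamini-Hochberg adjustment over all genes tested and a threshold of 0.05. A test on simulated counts with 200 genes changed by 1 on the log2 scale recovered 57.0% of them for all immune cells (10726 genes), 67.5% for macrophage-like cells (7920 genes) and 40.5% for T cell-like cells (7355 genes). It also called 4, 5 and 4 unchanged genes. The simulated counts had the same spread for all genes and no diet effect, so that these rates need not hold for the real sums. Levels are CPM. Intervals of shares are exact binomial at 95%. Doublets were kept, and a doublet score, which marked 69 to 231 cells per library and at most 2 immune ones, left them out as an alternative.

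Named genes were, for all immune cells, up to 12 per direction past the threshold with the same sign on all diets and a mean of at least 10 CPM, filled up to 8 by smallest p, with Ptprc, the steroid receptors (except a member that is not reported here) and up to 6 of each list (the 2 smallest p where none passed). For each class they were up to 6 per direction past the threshold, and other genes named within a class were chosen after their values were seen. Gene positions are from GENCODE M21 and promoters from RefSeq (GRCm38.p6). Alternatives were RLE normalization, DESeq2 1.42.0, no filter, no diet block, 9 libraries, each pair left out, and other cell gates. Columns of the 6 other libraries entered only where named.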

Additional observations from a re-analysis of the deposited data

Results flagged for a closer look

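Hist1h2ap moved in opposite directions in the 2 classes on every diet. Its log2 fold change, E2 against no hormone, was 1.60 in macrophage-like cells and -1.10 in T cell-like cells, where it stood at 256, 132 and 84.4 CPM without hormone and 91.7, 81.4 and 35.3 CPM with E2. The difference was not tested, and the fold in T cell-like cells had an edgeR adjusted p of 0.668. In macrophage-like cells with no Col1a1 UMI the log2 fold change was 0.68, with an edgeR adjusted p of 0.902. The edgeR adjusted p of Hist1h2ap in macrophage-like cells was also above 0.05 without the diet block (0.395), with 9 libraries (0.186), without the Pecam1 condition (0.054) and without the low PBDE pair (0.0989).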

How the results depend on the processing

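Counts of genes past the adjusted threshold moved with the processing. For all immune cells (0 in edgeR) DESeq2 gave 59, no filter on low counts 50, no PBDE block 8 and a mitochondrial limit of 10% gave 3, and leaving out 1 pair gave 0 to 283 (32 without the no PBDE pair, 0 without the low and 283 without the high PBDE pair). For macrophage-like cells (13) the counts were 23 with DESeq2, 303 without a filter, 5 without the block, 52 with the 10% limit, 53 with at least 2 Ptprc UMIs and 6 in cells with no Col1a1 UMI, of which 2 were shared. Leaving out 1 pair gave 8 to 131 (26, 8 and 131). For T cell-like cells (4) DESeq2 gave 7, no filter 31, and leaving out cells with 10 or more globin UMIs, an alternative chosen after seeing the data, gave 0. The cause was not tested. Removing the globin cells takes away the counts concerned, so that its outcome was set in advance. Among macrophage-like genes, Siglec1 had an edgeR adjusted p of 0.0567 without the block and 0.114 with no Col1a1 UMI. Its log2 fold changes there were 2.01 and 1.84.

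The mean difference in immune share was 2.08 percentage points when immune cells with any Col1a1 UMI were not counted as immune. With the 10% limit, 3 class shares moved in 1 direction on all diets, against 0. Col4a1 in all immune cells reversed to 0.0224 and Hbb-bt in macrophage-like cells to 1.18 with no Col1a1 UMI. With a pair left out, the mean difference in share ranged from -1.61 to 5.43 percentage points for macrophage-like, -2.59 to 2.64 for natural killer-like, -1.05 to 2.30 for dendritic cell-like, -0.322 to 0.0933 for mast cell-like, 2.10 to 8.16 for neutrophil-like and -9.90 to -0.70 for T cell-like cells.

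By replicate number, no paired analysis was possible because every library is labelled 1. Libraries were paired by diet instead, which was the block in the fits and the stratum in the permutations. Libraries of the same diet did not deviate together (r = -0.119, 0.0958 and -0.0524), and libraries of different diets gave r of -0.211 to 0.241. With 2 residual degrees of freedom, 75 macrophage-like cells in the smallest library and 3 UMIs of some genes, small differences could not be resolved.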
